A study of Mus musculus with 2 samples.

Results

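Retinoid genes were described in effector regulatory T cells of 2 mouse genotypes. The 10 genes cover the uptake of retinol (Stra6), its conversion to and from retinal (Rdh10, Rdh11, Dhrs3), the carriage and breakdown of retinoic acid (Crabp2, Cyp26b1) and the nuclear receptors (Rara, Rarg, Rxra, Rxrb). They were picked by symbol, each matched 1 row of the 46511 gene rows in both libraries, and all were annotated as protein-coding. The first library came from Nrn1+/- cells and the second from Nrn1-/- cells, with 1 library of each genotype. The title of the first library says WT, whereas its genotype label says Nrn1+/-, so heterozygous cells were the control. Mice of both genotypes were on a C57BL/6 background and carried the Foxp3DTRgfp allele, which marks Foxp3-expressing cells with green fluorescent protein. Cells were sorted as CD4+, CD25+, Cd62L low, CD44 high and Foxp3gfp+. The sources used here do not give the mice's age or how many mice went into a library. These are called the heterozygous and the null library below. Nrn1 encodes neuritin, a protein anchored to the cell surface.

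Retinol circulates bound to retinol-binding protein and can enter cells through STRA6. Inside the cell it is oxidised reversibly to retinal by retinol dehydrogenases, and retinal is then oxidised irreversibly to retinoic acid by the ALDH1A enzymes. Retinoic acid binds the RAR receptors, which sit on DNA as heterodimers with RXR, and it is removed by the CYP26 enzymes. In T cells retinoic acid is known for favouring the induction of Foxp3 together with TGF-beta and for inducing gut-homing receptors. It is supplied in large part by dendritic and stromal cells of the gut, which carry the ALDH1A enzymes.

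Levels are in FPKM, which divides the fragments of a gene by transcript length and by sequencing depth, so that genes can be compared with each other. Folds are ratios of FPKM. The log2 ratio is log2((Nrn1-/- + 1)/(Nrn1+/- + 1)), whose pseudocount of 1 FPKM understates the difference of low genes, and 1.5-fold thresholds apply to it. The spacing of low values gave what 1 fragment was worth, so the fragments behind a value could be estimated, for a gene's shortest and longest basic coding transcript. Folds are printed with a 95% exact binomial (Clopper-Pearson) interval on the smaller of these fragment numbers. As the fragments carry no molecular identifiers and may be copies of 1 molecule, the interval covers counting error only. With 1 library per genotype there was no spread between animals to set a difference against and no test was made.

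Of the 10 genes, Stra6 had the log2 ratio farthest from 0, and it was higher in the null library. Among the receptors Rarg was lower and Rxra higher there, while Rara, Rxrb, Crabp2, Rdh10 and Rdh11 stood at nearly the same level in both libraries. Cyp26b1 was close to 0 in both. Among the 9 genes that averaged 1 FPKM or more, 5 were higher in the null library, where 54.2% of all 10699 protein-coding rows at that level were. With each library brought to a sum of 1000000, 2 of the 9 were higher, against 24.5% of all rows. At least 1.5-fold higher was 1 of the 9, against 7.03% of all rows, and none was at least 1.5-fold lower, against 3.69%. Rarg made the latter 1 of 9 under 6 of the 7 alternatives tried, each of which could only lower its log2 ratio. Among them was the sum of 1000000, where 2.57% of all rows passed 1.5-fold in the higher direction and 15.3% in the lower. The median log2 ratio of the 9 was 0.03, and that of all rows was 0.04. Since the genes were chosen with these values known, the counts are a description.

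**Figure D1:**
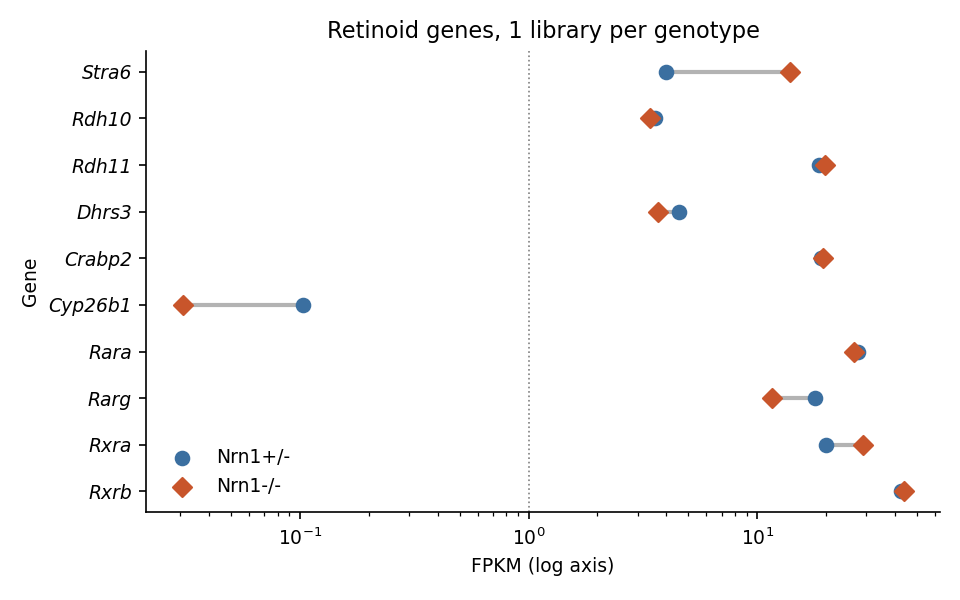
FPKM (log axis) of the 10 retinoid genes in the heterozygous library (circles) and the null library (diamonds), with a line joining each pair and a dotted line at 1 FPKM. Stra6 stands apart at 3.98 and 13.9 FPKM, and Cyp26b1 is the one gene left of the dotted line in both libraries.

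**Figure D2:**
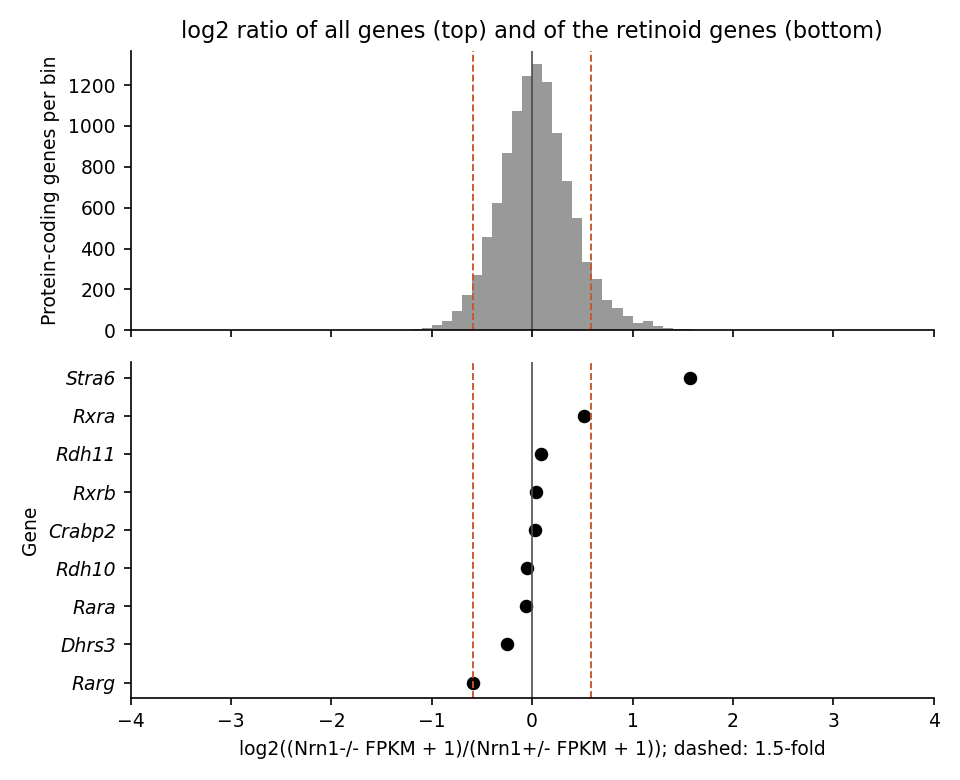
Top, number of protein-coding rows (mean of at least 1 FPKM) per bin of the log2 ratio; bottom, the 9 retinoid genes at that level on the same axis, with dashed lines at 1.5-fold. Stra6 lies in the sparse right tail, Rarg at the left line and Rxra short of the right one, and the other 6 lie within the bulk of genes.

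Stra6 (ENSMUSG00000032327.13, GRCm38 chromosome 9, 58063788 to 58153996, plus strand, 14 annotated transcripts) encodes the membrane receptor for retinol-binding protein and is itself known as a gene induced by retinoic acid. It stood at 3.98 FPKM in the heterozygous library and 13.9 FPKM in the null library, from 522 to 595 and from 1394 to 1589 estimated fragments. The Nrn1-/- value was thus 3.48-fold higher (interval 3.14 to 3.85), with a log2 ratio of 1.58. In the heterozygous library 15.2% of protein-coding rows lay below Stra6, and in the null library 42.3% did, so its place in the order of expressed genes moved up. Only 9 of the 10699 rows had a larger log2 ratio. The gene spans part of Ccdc33 on the opposite strand, but no exon of Stra6 overlapped an exon of another gene in GENCODE M21, and Ccdc33 itself was at 0.0452 and 0.0355 FPKM. The protein-coding genes with the most similar pair of values, by distance in log2(FPKM + 1) over the 2 libraries, were Dapl1 (4.34 and 13.3 FPKM), BC030867 (4.52 and 11.2 FPKM) and Tspan4 (3.77 and 10.9 FPKM).

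Promoter windows are shown for the 3 genes with the largest log2 ratios in either direction, because retinoid receptors bind DNA at repeats of a hexamer and Stra6 is a known target of retinoic acid. The windows are from RefSeq (GRCm38.p6), run from 250 bases before to 50 after an annotated start and are written 5′ to 3′ on the gene's strand. Capitals mark the hexamer AGGTCA or AGTTCA on either strand. For Stra6 these are the window of the most upstream RefSeq start (chr9:58128838-58129137, plus strand) and the one of its 4 windows that holds a hexamer (chr9:58133825-58134124, plus strand). For Rarg the window is chr15:102257473-102257772 (minus strand), and for Rxra it is chr2:27709042-27709341 (plus strand), the windows of these genes that hold a hexamer.
Stra6, most upstream start: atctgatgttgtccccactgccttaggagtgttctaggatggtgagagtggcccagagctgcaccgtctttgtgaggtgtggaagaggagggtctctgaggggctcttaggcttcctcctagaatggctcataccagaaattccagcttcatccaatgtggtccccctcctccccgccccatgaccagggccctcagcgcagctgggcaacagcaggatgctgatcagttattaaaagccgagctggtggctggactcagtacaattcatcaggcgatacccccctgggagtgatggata
Stra6, window with a hexamer: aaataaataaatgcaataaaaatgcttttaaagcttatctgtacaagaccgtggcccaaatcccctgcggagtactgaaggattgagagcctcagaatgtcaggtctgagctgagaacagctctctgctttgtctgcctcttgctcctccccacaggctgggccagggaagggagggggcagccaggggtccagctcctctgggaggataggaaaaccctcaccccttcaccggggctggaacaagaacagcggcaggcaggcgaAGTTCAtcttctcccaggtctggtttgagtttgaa
Rarg: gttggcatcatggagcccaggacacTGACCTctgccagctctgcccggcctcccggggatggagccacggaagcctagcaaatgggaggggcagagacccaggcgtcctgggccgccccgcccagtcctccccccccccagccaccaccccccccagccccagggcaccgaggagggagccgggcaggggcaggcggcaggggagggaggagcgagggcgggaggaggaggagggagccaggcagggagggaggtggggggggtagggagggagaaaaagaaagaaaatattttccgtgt
Rxra: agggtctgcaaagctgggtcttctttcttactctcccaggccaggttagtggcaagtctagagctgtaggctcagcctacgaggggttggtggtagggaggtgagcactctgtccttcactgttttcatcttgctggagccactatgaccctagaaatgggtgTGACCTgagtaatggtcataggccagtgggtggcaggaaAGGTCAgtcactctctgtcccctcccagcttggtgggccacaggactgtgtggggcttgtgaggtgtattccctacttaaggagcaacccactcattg

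The hexamer is common in promoter windows of this length. Of the 10 genes, 8 had windows in the RefSeq table, 20 in all, and 6 of the 20 windows from 5 genes held it, against 27.7% of all 32851 windows. Direct repeats of the hexamer (either letter choice in each copy, both strands) spaced by 1, 2 or 5 bases were found in 0 of the 20 windows, against 0.0822%, 0.0396% and 0.0396% of all windows. The deposited values are per gene, so they do not say which of the Stra6 starts was used in either library.

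Of the enzymes that interconvert retinol and retinal, Rdh10 and Rdh11 were close in both libraries and Dhrs3 was somewhat lower in the null library. Rdh11 (ENSMUSG00000066441.13, chromosome 12, 79174337 to 79192293, minus strand), which mainly reduces retinal to retinol, stood at 18.7 FPKM in the heterozygous library and 19.9 FPKM in the null library. Its fold of 1.06 had an interval of 0.984 to 1.15, which includes 1 on the smaller fragment numbers. No interval was made on the larger ones. Rdh10 (ENSMUSG00000025921.7, chromosome 1, 16105774 to 16133734, plus strand), which oxidises retinol to retinal, was at 3.58 and 3.41 FPKM, 1.05-fold lower in the null library (interval 0.929 to 1.19). Dhrs3 (ENSMUSG00000066026.13, chromosome 4, 144892827 to 144928209, plus strand) encodes a retinal reductase that works together with RDH10 and is induced by retinoic acid. It was at 4.55 and 3.67 FPKM, 1.24-fold lower in the null library (interval 1.01 to 1.53), with a log2 ratio of -0.25. Of all rows 19.8% had a lower log2 ratio than Dhrs3, which makes its difference a common one. Rdh11 was the most abundant of the 3 enzymes in both libraries, at 5.21 times the level of Rdh10 in the heterozygous library and 5.82 times in the null library. Dhrs3 to Rdh10 gave 1.27 and 1.07.

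Crabp2 and Cyp26b1 act on retinoic acid after it is made, the first carrying it to RAR in the nucleus and the second hydroxylating it for removal. Crabp2 (ENSMUSG00000004885.5, chromosome 3, 87948666 to 87953376, plus strand) stood at 19.0 FPKM in the heterozygous library and 19.5 FPKM in the null library, a fold of 1.02 with an interval of 0.916 to 1.15. Its place among expressed genes was also alike, with 52.5% of rows below it in the heterozygous library and 52.4% in the null library. Cyp26b1 (ENSMUSG00000063415.11, chromosome 6, 84571414 to 84593908, minus strand) was at 0.103 and 0.0307 FPKM. These values rest on 6 to 23 and on 1 to 5 estimated fragments. The fold of 0.297 had an interval of 0.00472 to 1.79, which includes 1 on the smaller fragment numbers. No interval was made on the larger ones, so it is not settled whether counting error covers the difference. It was the only one of the 10 genes below a mean of 1 FPKM and is left out of the counts above.

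Among the 10 genes the receptors had the highest summed level, and their balance differed between the libraries. Rara (ENSMUSG00000037992.15, chromosome 11, 98927818 to 98974942, plus strand), the main retinoic acid receptor by level here, stood at 27.7 FPKM in the heterozygous library and 26.6 FPKM in the null library, 1.04-fold lower (interval 0.989 to 1.102). Rarg (ENSMUSG00000001288.13, chromosome 15, 102234938 to 102257517, minus strand), a second retinoic acid receptor, was at 17.8 and 11.6 FPKM, 1.54-fold lower in the null library (interval 1.44 to 1.66). Its log2 ratio of -0.5849 fell just short of the 1.5-fold threshold of -0.58496, and 3.69% of all rows had a lower one. The genes with the most similar pair of values were Ppp1r21 (17.5 and 11.6 FPKM), Zfp53 (17.6 and 11.3 FPKM) and Phf11b (18.2 and 11.3 FPKM).

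Rxra (ENSMUSG00000015846.13, chromosome 2, 27676440 to 27762957, plus strand), a partner receptor of RAR and of several other nuclear receptors, went the other way, at 20.0 FPKM in the heterozygous library and 29.1 FPKM in the null library. This was 1.45-fold higher (interval 1.36 to 1.55), with a log2 ratio of 0.51 that 9.10% of all rows exceeded. Rxrb (ENSMUSG00000039656.15, chromosome 17, 34031812 to 34038399, plus strand), the other expressed partner receptor, had the highest level of the 10 genes in both libraries, at 42.6 and 43.7 FPKM (fold 1.03, interval 0.982 to 1.07). The remaining family members were at or near 0: Rarb was at 0.0270 and 0.0531 FPKM, and Rxrg was listed at 0 in both libraries. The order of levels was Rxrb, Rara, Rxra, Rarg in the heterozygous library and Rxrb, Rxra, Rara, Rarg in the null library.

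Ratios between genes of 1 library do not depend on how the libraries were scaled to each other. Rarg made up 39.1% of the summed RAR level in the heterozygous library and 30.3% in the null library. Rxra made up 32.0% and 39.9% of the summed RXR level. The RXR sum stood to the RAR sum as 1.38 in the heterozygous library (62.7 over 45.6 FPKM) and as 1.91 in the null library (72.8 over 38.2 FPKM). The RAR sum was lower in the null library as deposited and with each scaling, all of which could only lower its ratio further. The RXR sum was higher as deposited and lower, at 97.1 against 92.1, when each library was brought to a sum of 1000000. Whether these ratios vary as much between animals of 1 genotype cannot be told from 1 library each.

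**Figure D3:**
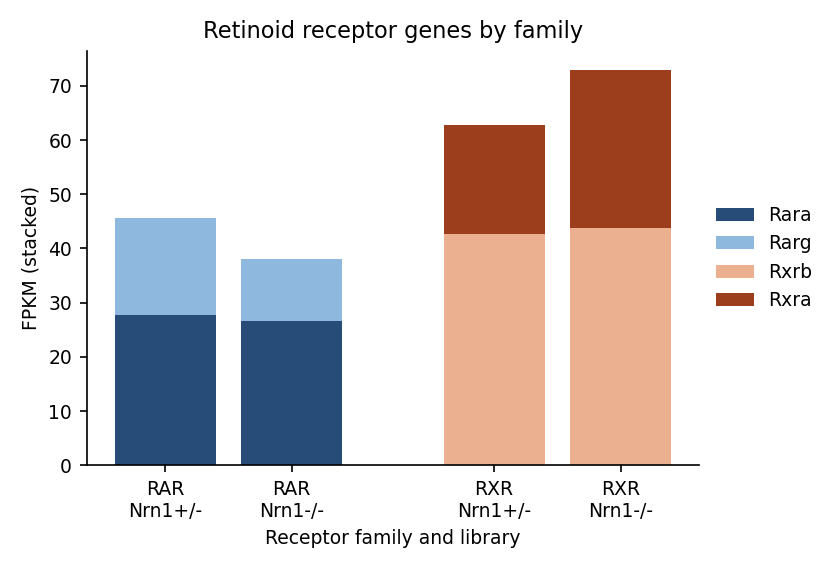
Stacked FPKM of the expressed retinoid receptor genes, with the RAR family (Rara, Rarg) and the RXR family (Rxrb, Rxra) in separate bars for each library. The Rarg part of the RAR bar is smaller and the Rxra part of the RXR bar larger in the null library, while Rara and Rxrb are nearly the same.

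Small differences depended on how the libraries were scaled to each other, which the sources used here do not state. Rdh11, Rxrb and Crabp2 were higher in the null library as deposited and lower with upper-quartile scaling, with equal protein-coding sums and at a sum of 1000000. Stra6 and Rxra were higher, and Rarg, Dhrs3, Rara and Rdh10 lower, under all 7 alternatives tried. Pseudocounts and the filter cannot reverse a direction, and the scalings and centring all lowered the ratios. Rarg, Dhrs3, Rara and Rdh10 could therefore not have turned higher. For Stra6 and Rxra the scalings and centring could have reversed the direction.

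**Figure D4:**
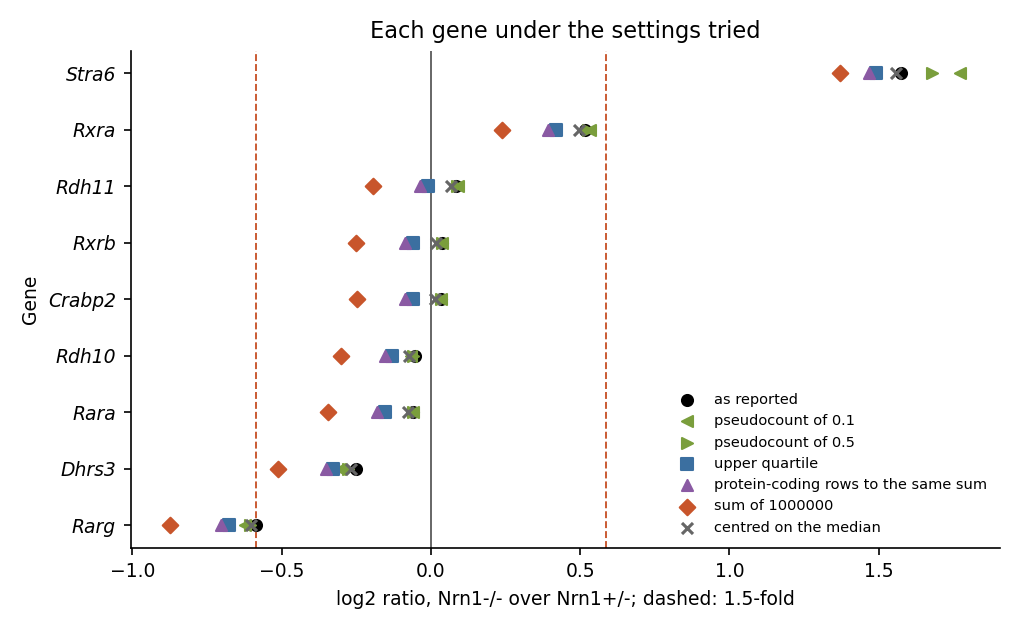
Log2 ratio of each of the 9 genes as reported (black circles) and with other pseudocounts, scalings or centring (other symbols), with dashed lines at 1.5-fold. Stra6 stays between 1.37 and 1.77 and Rxra above 0, while Rdh11, Rxrb and Crabp2 change side of 0 with the scaling.

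The other genes of the pathway came from 8 lists of 90 distinct genes, 80 of them besides the 10 described above. Of these 80, 37 reached a mean of 1 FPKM, and 15 of the 37 were higher and 22 lower in the null library (median log2 ratio -0.15). Of all rows at that level 54.2% were higher, with a median of 0.04. At least 1.5-fold higher were 4 (Scarb1, Fabp5, Hic1 and Tgm2) and at least 1.5-fold lower was 1 (Kat2b), against the shares of 7.03% and 3.69% over all rows. With each library brought to a sum of 1000000, which lowered the median log2 ratio of all genes by 0.27, 39 of the genes reached the level, 7 were higher and 32 lower, 1 of them at least 1.5-fold higher (Fabp5) and 11 at least 1.5-fold lower. At that scaling 24.5% of all rows were higher, 2.57% of all passed 1.5-fold higher, and 15.3% passed 1.5-fold lower.

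Of the 14 genes for uptake and storage, 10 stayed below a mean of 1 FPKM. Stra6l, which encodes a second receptor for retinol-binding protein, and Lrat, the enzyme that esterifies retinol, were at most 0.00371 FPKM. Scarb1, a lipoprotein receptor that also takes up carotenoids, stood at 11.1 and 20.1 FPKM, 1.82-fold higher in the null library (interval 1.69 to 1.96). Dgat1, an acyltransferase that can also esterify retinol, was at 46.5 and 34.1 FPKM. The log2 ratios of Scarb1 and Dgat1 were 0.81 and -0.44.

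Of the 23 genes for retinol and retinal enzymes 10 reached 1 FPKM, 4 higher and 6 lower, and none passed 1.5-fold. At a sum of 1000000, 1 was higher and 9 lower, 3 of them by 1.5-fold, where 24.5% of all rows were higher and 15.3% lower by 1.5-fold. Among relatives of Rdh10 and Rdh11, Rdh13 stood at 9.75 and 9.82 FPKM, Rdh14 at 11.3 and 8.22 FPKM, Rdh12 at 4.05 and 3.26 FPKM and Rdh5 at 4.59 and 2.92 FPKM. Rdh5 had the lowest log2 ratio of this list, -0.51, and passed 1.5-fold lower with a pseudocount of 0.1, with upper-quartile scaling, with equal protein-coding sums and at a sum of 1000000. Adh5, a cytosolic alcohol dehydrogenase that works mainly on glutathione adducts, was the most abundant at 74.1 and 90.0 FPKM.

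Genes that make retinoic acid itself were barely detected. All 5 stayed below 1 FPKM and summed to 0.422 FPKM in the heterozygous library and 0.682 FPKM in the null library. Aldh1a1 and Aldh1a7 were listed at 0 in both. Aldh1a2, known from gut dendritic and stromal cells, was at 0.363 and 0.268 FPKM. Aldh1a3 was at 0.0149 FPKM in the heterozygous library, on 1 to 3 estimated fragments, and at 0.402 FPKM in the null library, on 14 to 52. Its fold of 27.0 had an interval of 2.77 to 771, and both values were under the level at which genes were counted. Aldh1a3 was singled out after its values were seen.

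Among carriers and breakdown enzymes Fabp5, a fatty acid binding protein that also delivers retinoic acid to PPAR-delta, was at 76.8 FPKM in the heterozygous library and 143 FPKM in the null library, 1.86-fold higher (interval 1.78 to 1.95). Fabp5 stood to Crabp2 as 4.03 in the heterozygous library and as 7.34 in the null library. Ppard, the gene of PPAR-delta, was at 13.0 and 12.8 FPKM. Whether reads of Fabp5 were shared with retrocopies of the gene was not tested. Cyp26a1, Cyp26c1 and Crabp1 were at most 0.160 FPKM in either library, as Cyp26b1 was.

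Of the 8 measured partners of RXR 2 were higher and 6 lower, and of the 13 coregulators 4 were higher and 9 lower, where 54.2% of all rows were higher. At a sum of 1000000 all 8 and all 13 were lower, where 24.5% of all rows were higher. Kat2b, a histone acetyltransferase and coactivator, was at 25.5 and 16.0 FPKM, 1.60-fold lower (interval of the Nrn1-/- to Nrn1+/- fold 0.599 to 0.656). It was past 1.5-fold with each scaling tried, all of which could only lower its ratio further. The coactivator Crebbp was at 15.9 and 11.3 FPKM, with a log2 ratio of -0.46, and passed 1.5-fold lower at a sum of 1000000 (-0.75). At that sum 3 of the 13 coregulators passed it, against 15.3% of all rows. The corepressor Ncor1 (86.5 and 81.4 FPKM) and the coactivator Ncoa3 (103 and 86.9 FPKM) differed less. Thra, a thyroid hormone receptor that pairs with RXR, was at 8.71 and 5.56 FPKM with a log2 ratio of -0.57, near that of Rarg. It passed 1.5-fold lower under 5 of the 7 alternatives, the pseudocounts of 0.1 and 0.5 and the 3 scalings, with values of -0.85 to -0.60. Each of these 5 could only lower its log2 ratio.

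Known target genes of retinoic acid went both ways. Of 19 listed, 10 reached 1 FPKM, with 5 higher and 5 lower and a median of -0.01, where 54.2% of all rows were higher. At a sum of 1000000, 4 were higher and 7 lower of 11, where 24.5% of all rows were higher. The 3 of 10 at least 1.5-fold higher, against 7.03% of all rows, were Stra6, Hic1, a transcriptional repressor induced by retinoic acid in T cells, and Tgm2, a transglutaminase. Hic1 stood at 3.43 and 6.18 FPKM (fold 1.80, interval 1.62 to 2.01), and Tgm2 at 3.39 and 5.67 FPKM (fold 1.67, interval 1.501 to 1.864). Tgm2 dropped below 1.5-fold with all rescalings and after centring, and Hic1 at a sum of 1000000. At that sum 1 of the 11 passed 1.5-fold higher and 2 passed it lower, against 2.57% and 15.3% of all rows. The gut-homing integrin genes Itga4 (16.2 and 11.4 FPKM) and Itgb7 (147 and 116 FPKM) had log2 ratios of -0.47 and -0.34. Itga4 passed 1.5-fold lower with equal protein-coding sums (-0.59), and both integrin genes did at a sum of 1000000 (-0.76 for Itga4). The gut-homing receptor gene Ccr9 was at 1.09 and 0.669 FPKM. Of the genes that belong to both lists, Rara and Crabp2 differed little and Dhrs3 was 1.24-fold lower in the null library, as given above.

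**Figure D5:**
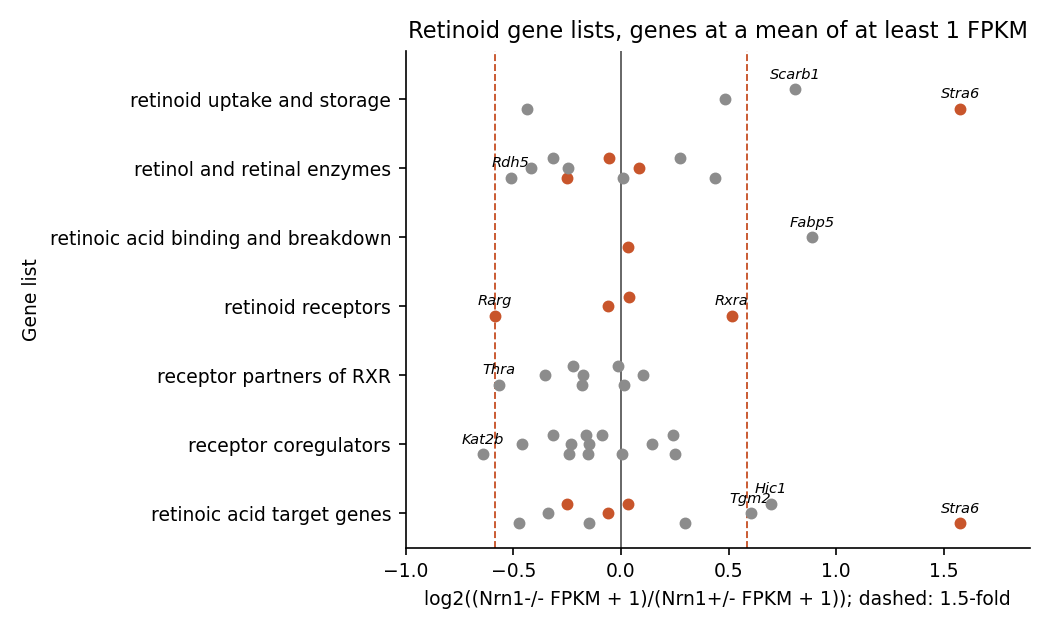
Log2 ratio of each retinoid gene averaging 1 FPKM or more, by list, with the genes described first in red and all others in grey (vertical offsets only separate points). Dashed lines mark 1.5-fold, and Stra6 at 1.58, Fabp5 and Scarb1 lie farthest to the right.

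The targeted gene Nrn1 was at 66.5 FPKM in the heterozygous library and 4.62 FPKM in the null library. All 7 markers of T cells and Treg cells, among them Cd3e, Cd4 and Foxp3, were between 54.4 and 601 FPKM, with sums of 1824 and 1596 FPKM. Of the 7, 6 were lower in the null library, among them Foxp3 (257 and 195 FPKM) and Ctla4 (491 and 389 FPKM), with a median log2 ratio of -0.18. Of all rows 54.2% were higher, with a median of 0.04. Most markers of other cells averaged below 1 FPKM, though Pecam1, Epcam and Cd68 among others were above it. The part of other cells in the results was not tested. All 5 B cell markers were higher in the null library, with sums of 5.64 and 7.27 FPKM of which Cd79b made most, and none was at 0. Cd79b itself had a log2 ratio of 0.07 as deposited and was lower with equal protein-coding sums (-0.04) and upper-quartile scaling (-0.01). The 7 macrophage and monocyte markers summed to 9.88 and 8.28 FPKM, of which Cd68 made most (7.09 and 5.56 FPKM). Csf1r and Fcgr1 were listed at 0 in the null library, on at most 6 estimated fragments in the heterozygous one. Lyz2 and Adgre1 were also lower there, whereas Cd14 (0.0140 and 0.128 FPKM) and Ly6c2 (1.98 and 2.07 FPKM) were higher in the null library. The 6 dendritic cell markers summed to 2.96 and 2.38 FPKM, of which Zbtb46 made most (2.58 and 1.89 FPKM). Xcr1 (0.296 and 0.318 FPKM), Itgax (0.0497 and 0.117 FPKM) and Flt3 (0.0324 and 0.0508 FPKM) were higher in the null library. Clec9a and Siglech were at 0 in both. Of the 8 stromal and endothelial markers only Pecam1 (34.6 and 24.6 FPKM), which T cells also express, was above 1 FPKM, and Col3a1 and Pdgfra were at 0 in both. Col1a1 was at 0.0866 and 0.175 FPKM (fold 2.02, interval 1.19 to 3.42). Col1a2 was at 0.108 and 0.261 FPKM (fold 2.43, interval 1.52 to 3.95). Cdh5 and Pdpn were also higher in the null library, and Pdgfrb was lower (0.0660 and 0.0192 FPKM). The 4 epithelial markers summed to 16.8 and 12.7 FPKM, nearly all of it Epcam, and the 4 CD8 T cell and NK cell markers to 6.91 and 5.22 FPKM. Of the latter, Cd8b1 made most (4.65 and 3.45 FPKM), and Ncr1 and Klrb1c were also lower in the null library. Cd8a was higher there (0.276 and 0.484 FPKM, fold 1.75, interval 1.15 to 2.72). The 3 red cell markers summed to 0.528 and 0.202 FPKM. In bulk RNA, more cells that express a gene and more RNA per cell cannot be told apart.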

How the data were processed

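Poly(A) RNA was sequenced from 1 library per genotype, made with the NEBNext Ultra kit per the labels' protocols. The sources used here do not say whether counting used strand. The authors deposited 1 FPKM value per gene and library. No header names the unit, which was inferred from the values and from the tools in the submitters' processing notes (FastQC, TopHat, Cuffdiff, Cuffnorm; builds mm10 and GRCm38). Nor do they give the annotation, any filter or any scaling of the libraries to each other.

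With 210 bases taken off transcript length, low values of genes with 1 transcript were whole multiples (within 0.05, where chance gives 10%) of 0.0192 FPKM times kilobase in the heterozygous library for 95.7% of 1768 genes, and of 0.025 in the null library for 95.8% of 1727. This would mean 52083333 and 40000000 fragments if FPKM was computed with each library's own total. Gene coordinates came from GENCODE M21. Ratios, counts and 7 alternatives (pseudocounts of 0.1 and 0.5, 3 scalings, centring, no filter) were computed with pandas 2.3.3 and scipy 1.17.1, and the steps were tested on simulated data. The genes and lists were chosen with earlier results of these data known. Named were all 10 genes, the 3 genes most like the highest and the lowest of them, and list genes past 1.5-fold or of the same families. Other genes named from the lists were chosen after their values were seen. Some list genes enter the counts but are not reported by name here.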

Additional observations from a re-analysis of the deposited data

How the results depend on the processing

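No paired analysis was possible because each genotype had 1 library, and for the same reason no library could be left out. Of 9 genes, 5 were higher in the null library as reported and 2 (Stra6 and Rxra) with upper-quartile scaling, equal protein-coding sums or a sum of 1000000, which moved the median log2 ratio of all genes by -0.09, -0.11 and -0.27. Rarg made the number at least 1.5-fold lower 1 instead of 0 with pseudocounts of 0.1 or 0.5, these scalings and centring on the median. All of these could only lower its log2 ratio, which was just short of the threshold as reported. The median log2 ratio of the genes, 0.033 as reported, was 0.0345 and 0.0338 with pseudocounts of 0.1 and 0.5, -0.251 at a sum of 1000000, -0.0877 with equal protein-coding sums, -0.0609 with upper-quartile scaling, 0.0141 after centring and -0.0109 with no filter, which adds Cyp26b1. Stra6 was the 1 gene at least 1.5-fold higher under each of the 7 alternatives, with log2 ratios of 1.37 to 1.77. Rarg ranged from -0.87 to -0.58, Rxra from 0.24 to 0.53 and Dhrs3 from -0.51 to -0.25. Depth limited Cyp26b1, Rarb and the ALDH1A genes, whose values rest on few fragments.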
